A study of Mus musculus with 4 samples.

Results

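Granzymes are serine proteases kept in the granules of cytotoxic lymphocytes, and perforin is the pore-forming protein released with them. Of the 19465 genes in the mouse tables, the 7 described here were picked by gene symbol: Gzma, Gzmb, Gzmk, Gzmc, Gzmf, Gzmg and Prf1. They were proposed after results of these data had been seen, so their levels in lung and primary tumour (PT) are given as a description, and nothing is read from a test between the tissues. The samples were 4 sections, 1 PT section and 1 lung section from each of 2 mice, labelled Mouse_627 and Mouse_628; the sections are called PT_627, PT_628, Lung_627 and Lung_628. Both were BALB/c animals, aged 8 weeks at injection, that received 4T1 cells, a syngeneic triple-negative mammary carcinoma line, in the mammary fat pad, and tissue was taken at day 28. Every animal thus carried a tumour, and no tumour-free lung or fat pad was analysed here. The lungs were taken whole with any metastases they held, and the labels do not mark which spots are metastasis. The formalin-fixed, paraffin-embedded sections were hybridised with probe pairs on a Visium slide, where a barcoded spot takes up RNA from a patch of tissue that may contain more than 1 cell.

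When a cytotoxic T or natural killer (NK) cell meets a target, it releases its granules at the contact. Perforin opens the way into the target, and granzyme B cuts caspases and Bid there and so starts cell death. Granzyme A is a tryptase that is frequent in NK cells and in resting or early effector T cells, while granzyme K marks a subset of CD8 T cells. Granzymes C, F and G belong to a rodent cluster of close copies, known from strongly stimulated mouse T cells, from activated NK cells and from granulated cells of the pregnant uterus.

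By position the genes fall into 3 places (mm10, GENCODE vM21). Prf1 lies on chr10:61297833-61304680, plus strand. Gzma on chr13:113093825-113100981 and Gzmk on chr13:113171608-113225908 lie on the minus strand. The others share one stretch of 144635 bases of chromosome 14 that holds 7 protein-coding genes, all on the minus strand: Gzmg on chr14:56156582-56159579, Gzmf on chr14:56205263-56211417, Gzmc on chr14:56231441-56234656 and Gzmb on chr14:56258838-56262260, with Gzme, Gzmd and Gzmn among them. Coding sequences of Gzmf and Gzmg were identical at 87.1% of aligned bases, those of Gzmc and Gzmg at 75.7%, and those of Gzmg and Gzme at 90.0%. Gzmb shared 77.9% with Gzmc and 72.6% with Gzmg. Prf1, which is no copy of a granzyme, reached 72.3% with Gzmc, 72.8% with Gzmg and 75.8% with Gzmm. Values in that range are therefore no sign of a close copy by this measure. Probes for close copies can take up one another's RNA, so values of Gzmc, Gzmf, Gzmg and Gzme were read as those of a family, and the split of UMIs (unique molecules counted) among them is uncertain. Gzmb is about as close to Gzmc, and sharing between their probes was not tested. Gzmd was not measured in the tables used here.

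The promoters of Gzmc, Gzmf and Gzmg are shown because these genes differed most in level between tumour and lung and their promoters are close copies too. All 7 members matched the RefSeq promoter table (GRCm38.p6, the build of the files). The 150 bases before each start are printed on the gene's strand, that is the minus strand of chromosome 14, 5′ to 3′, with Gzme beside them. Capitals mark TGACGTCA, the letters known as the cAMP response element.

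Gzmc, chr14:56234658-56234807: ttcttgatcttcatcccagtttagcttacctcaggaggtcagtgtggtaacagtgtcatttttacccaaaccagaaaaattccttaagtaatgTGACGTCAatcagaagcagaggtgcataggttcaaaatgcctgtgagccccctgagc

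Gzmf, chr14:56211408-56211557: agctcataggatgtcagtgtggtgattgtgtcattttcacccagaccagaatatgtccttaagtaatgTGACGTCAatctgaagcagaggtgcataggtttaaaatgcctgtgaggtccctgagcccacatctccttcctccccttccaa

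Gzmg, chr14:56159580-56159729: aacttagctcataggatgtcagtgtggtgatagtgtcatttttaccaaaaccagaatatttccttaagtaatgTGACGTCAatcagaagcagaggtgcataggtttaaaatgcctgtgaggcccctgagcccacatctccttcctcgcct

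Gzme, chr14:56120626-56120775: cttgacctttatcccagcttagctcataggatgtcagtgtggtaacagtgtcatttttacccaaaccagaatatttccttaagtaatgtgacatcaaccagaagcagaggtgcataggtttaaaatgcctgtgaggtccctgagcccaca

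Over the aligned bases of these windows Gzmf and Gzmg were 94.5% identical, Gzmc and Gzmg 90.8%, and Gzmg and Gzme 94.8%, against 59.5% for Gzmc and Gzmb and 52.6% for Gzmg and Gzmb. TGACGTCA, searched on both strands of the 300-base promoter windows, stood in Gzmc, Gzmf and Gzmg and in no other member. It occurs in 1.79% of all 32851 windows. TGTGGT, the core letters of a Runx site, stood in every member but Gzmk and occurs in 16.8% of windows. TGACTCA, an AP-1 element held by 5.20% of windows, stood in Gzmb, and AGGTGTGA, a T-box element held by 1.28%, stood in none of the members. A match of letters is a description of the sequence and not evidence of binding.

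The 4 sections differed in depth and background. Spots with over 200 genes numbered 2490 and 2372 in PT_627 and PT_628 and 1697 and 2780 in Lung_627 and Lung_628, with medians of 2931, 1820, 6555 and 9174.5 UMIs per spot. The 1191 olfactory, vomeronasal and trace amine receptor genes, which neither tissue is known to use, took 0.0879% and 0.935% of UMIs in PT_627 and PT_628 against 0.0245% and 0.0184% in Lung_627 and Lung_628, so PT_628 held the most background. The median receptor gene stood at 0.59 and 6.61 CPM (UMIs of a gene scaled to a common section total) in PT_627 and PT_628 and at 0.18 and 0.13 in Lung_627 and Lung_628. Tissue labels held by markers. Alveolar genes summed to 13156 and 7468 CPM in the lungs of Mouse_627 and Mouse_628 and to 25.1 and 64.8 CPM in the tumours, and 4T1 tumour genes to 153 and 1260 CPM in the lungs and 4153 and 5249 CPM in the tumours.

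Granzymes C, F and G and perforin were abundant in both tumours and scarce in both lungs, while granzyme A overlapped between the tissues. Gzmg reached 8992 UMIs (664 CPM) in PT_627 and 8793 (807 CPM) in PT_628, against 18 (1.62 CPM) in Lung_627 and 117 (3.87 CPM) in Lung_628. Its CPM was 411-fold higher in PT than in lung in Mouse_627 and 209-fold higher in Mouse_628. Gzmf showed the same contrast, with 426 and 574 CPM in PT_627 and PT_628 against 1.17 and 4.33 CPM in Lung_627 and Lung_628. Gzmc stood at 141 and 183 CPM in the tumours and at 0.989 and 2.35 CPM in the lungs. For all 3 genes the lung of Mouse_628 lay above that of Mouse_627, while Gzma, Gzmb and Prf1 were lower in it. The lung of Mouse_628 also held more 4T1 marker RNA, and a link to these levels was not tested. In such spots, fewer cells that make a transcript and less transcript per cell cannot be told apart.

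Among the genes shared by T and NK cells, Prf1 stood at 63.6 CPM in PT_627 (860 UMIs) and 71.1 CPM in PT_628 (774 UMIs), against 4.50 CPM in Lung_627 (50 UMIs) and 1.82 CPM in Lung_628 (55 UMIs). Gzmb had 963 UMIs (71.2 CPM) in PT_627 and 641 (58.9 CPM) in PT_628, but 37 (3.33 CPM) in Lung_627 and 30 (0.992 CPM) in Lung_628. CPM was 14.1-fold and 39.1-fold higher in PT for Prf1 and 21.4-fold and 59.3-fold higher for Gzmb in Mouse_627 and Mouse_628. Gzma differed from these. It had 625 UMIs (46.2 CPM, 95% exact Poisson interval 42.6 to 50.0) in PT_627, 261 (24.0 CPM, 21.1 to 27.1) in PT_628, 331 (29.8 CPM, 26.6 to 33.1) in Lung_627 and 391 (12.9 CPM, 11.7 to 14.3) in Lung_628. Lung_627 thus lay above PT_628, the groups overlapped, and within a mouse PT exceeded lung 1.55-fold in Mouse_627 and 1.85-fold in Mouse_628. In PT_628 Gzma lay above 96.8% of the receptor genes, between their 95th and 99th percentiles (19.0 and 32.7 CPM). The part of background in these folds was not tested. Intervals cover counting error only.

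Gzmk had few UMIs, at or near background in 3 of 4 sections. It had 30 and 44 UMIs in PT_627 and PT_628 and 2 and 6 UMIs in Lung_627 and Lung_628, and its CPM lay above 17.1% of the receptor genes in PT_628, 44.0% in Lung_627 and 70.6% in Lung_628. In PT_627 its 2.22 CPM lay above 97.3% of them. No fold is given for it.

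**Figure D1:**
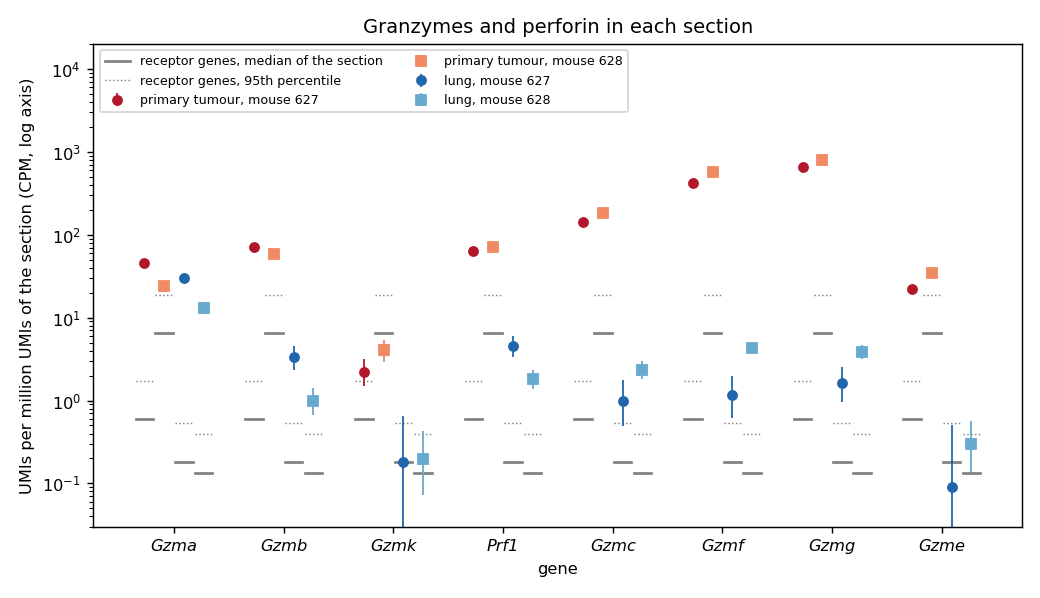
CPM (log axis) of each of the 7 genes and of Gzme in the 4 sections, with exact 95% Poisson intervals as bars and, at each gene, the median (solid line) and 95th percentile (dotted line) of the receptor genes in each section. Gzmc, Gzmf, Gzmg, Gzmb and Prf1 sit far higher in both PT sections than in either lung section, and Gzma overlaps between tissues.

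Across all genes, edgeR's quasi-likelihood test called 1139 of 15267 genes between lung and PT (7.46%), of which 963 were higher in lung (6.31%) and 176 lower (1.15%). DESeq2 turned the majority, with 1676 of 19314 genes higher in lung and 2035 lower. Of the members, Gzmb, Prf1, Gzmc, Gzmf and Gzmg were among the genes called lower and Gzma and Gzmk were not called; since their levels in these sections may have led to their choice, nothing is read from this count. Gzme, a copy outside the chosen set, was at 22.1 and 34.5 CPM in PT_627 and PT_628 and had 1 and 9 UMIs in Lung_627 and Lung_628. Gzmn, another copy, had 17 and 85 UMIs in the tumours and 0 in both lungs, but in PT_628 it lay near the receptor genes. Gzmm, a granzyme of NK cells coded elsewhere, had 13, 81, 12 and 23 UMIs in PT_627, PT_628, Lung_627 and Lung_628.

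Of the T cell genes, 0 of 21 tested were called in the same edgeR fit (3 at an unadjusted p under 0.05, median log2 difference 0.36), while DESeq2 called 1 higher in lung. None of 11 NK cell genes was called either (2 at an unadjusted p under 0.05, median log2 -1.48), and DESeq2 called 1 lower in lung. Over all genes the median log2 difference was 0.00 rounded. T cell receptor component Cd3e was at 21.4 and 10.8 CPM in PT_627 and PT_628 and at 24.8 and 7.74 CPM in Lung_627 and Lung_628, so its levels overlapped between tissues. In PT_628 that is between the median and the 95th percentile of the receptor genes (6.61 and 19.0 CPM). The NK receptor gene Ncr1 had 30, 56, 29 and 23 UMIs in PT_627, PT_628, Lung_627 and Lung_628, and in PT_628 it lay below the median receptor gene. Klrb1c, which encodes NK1.1, and Klra4 had no UMI in any section. Whether their probes take up RNA of BALB/c mice was not tested, so nothing about NK cells is read from these zeros.

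Among 24 tested regulators, cytokines and checkpoint genes 1 was called, Tnfrsf9, the costimulatory receptor 4-1BB, which was lower in lung (log2 -4.21, edgeR adjusted p = 0.00993). Of 17 genes for granule release and granzyme processing 3 were called, all higher in lung: Rab27a, a docking factor of lytic granules, by 3.59 on the log2 scale (edgeR adjusted p = 0.00731), Lyst by 2.03 (0.0406) and Vamp8 by 1.77 (0.0469). All 3 are also used by granulocytes, platelets or secretory epithelium, and 10 of 13 neutrophil genes were higher in lung in this fit. Of 13 granzyme inhibitors and targets 2 were higher in lung, Serpina3n, a serpin, by 5.83 (edgeR adjusted p = 0.000879) and Gsdme, a gasdermin that granzyme B can cut, by 3.34 (0.0136). Over all genes edgeR called 7.46%, 6.31% as higher. DESeq2 called far more, 3711 of 19314 genes, with 1676 higher in lung and 2035 lower. Of the lists it called 2 higher and 2 lower of 25 regulators, 5 higher and 1 lower of 17 release genes, and 5 higher and 1 lower of 13 inhibitors and targets. Without TMM edgeR called 328 of 15267 genes, and of the lists 0 of the regulators (5 at an unadjusted p under 0.05) and 1 gene of each of the others. The part of other cell types in these differences was not tested.

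The contrast in Gzmg was also seen at equal depth. After spots of at least 1000 UMIs were thinned to that number, a Gzmg UMI was found in 45.5% and 35.6% of spots in PT_627 and PT_628 and in 0.178% and 0.432% in Lung_627 and Lung_628. Without thinning the shares for the same spots were 87.6%, 56.8%, 1.07% and 2.85%, so both orders were the same although lung spots were deeper. Shallower spots were left out, 886 of 2490 in PT_627, 56 in PT_628, 10 in Lung_627 and 5 in Lung_628. For Gzma the thinned shares were 4.18%, 2.94%, 2.61% and 1.48% in PT_627, PT_628, Lung_627 and Lung_628, against 25.4%, 8.33%, 16.9% and 10.8% unthinned. For Gzma the thinned shares of both tumours lay above those of both lungs, unlike the unthinned ones. The nearest pair rests on few UMIs, 71 in 2316 spots of PT_628 (30.7 CPM) and 44 in 1687 of Lung_627 (26.1 CPM). Whether this pair differs beyond counting error was not tested, so a change of order is not shown. Thinning also gives shallow spots the same weight as deep ones, and over all UMIs of PT_628 Gzma was at 24.0 CPM. When spots of a section were split into 4 bins of equal size by total UMIs, from shallow to deep, Gzmg in PT_627 stayed between 653 and 738 CPM, whereas the receptor genes fell from 5982 to 336 CPM in sum. In PT_628 Gzmg was at 508, 464, 460 and 936 CPM over the bins, and the receptor sum dropped from 34511 to 2879 CPM. In Lung_627 Gzmg was at 8.11 CPM in the shallowest bin and at 0.456 CPM in the deepest, but on only 10, 4, 2 and 2 UMIs over the bins. The receptor sum of Lung_627 fell from 453 to 185 CPM. In Lung_628 Gzmg was at 8.46, 2.79, 4.33 and 3.08 CPM over the bins, and the receptor sum fell from 513 to 100 CPM. Gzma in Lung_627 was at 34.1, 31.5, 27.0 and 29.6 CPM over the bins. In PT_628 Gzma was at 38.3, 34.2, 28.2 and 20.7 CPM, lower in deeper spots, as the receptor sum was there. The part of background in the thinned value of Gzma in PT_628 was not tested.

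**Figure D2:**
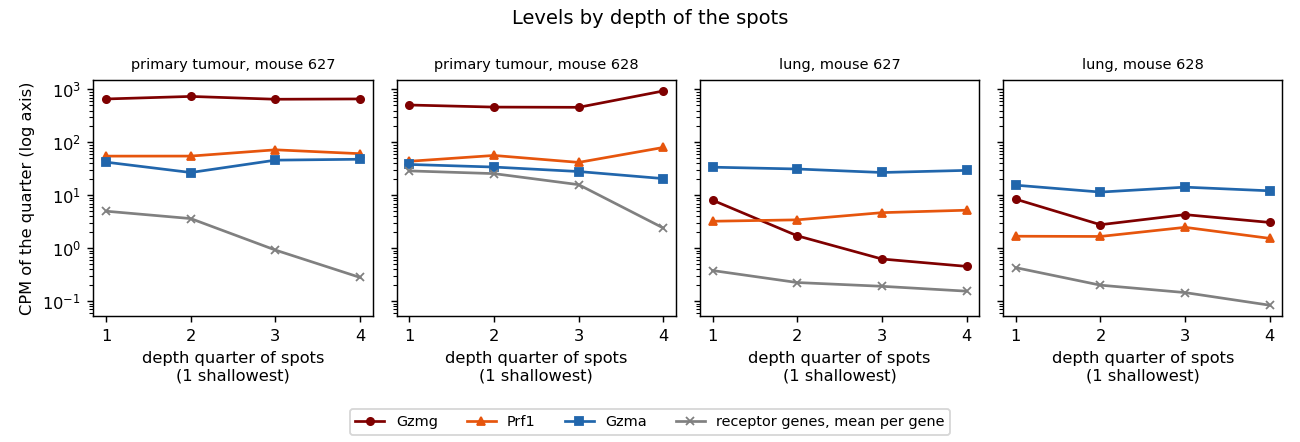
CPM (log axis) of Gzmg, Prf1 and Gzma, and the mean CPM per receptor gene, in 4 bins of spots ordered by total UMIs, for each section. Gzmg stays between 460 and 936 CPM in every bin of both PT sections, while the receptor genes fall from the shallowest to the deepest bin.

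Within the tumours, UMIs of Gzmc, Gzmf and Gzmg lay in patches. Spots with at least 10 such UMIs numbered 557 in PT_627 (22.4% of spots) and 233 in PT_628 (9.82%), and they held 72.5% and 77.9% of these UMIs. Lung_628 had 4 such spots, each isolated, and Lung_627 had 0. Dense spots fell into 31 patches of adjoining spots in PT_627 and 15 in PT_628. The 4 largest, of 384, 68, 14 and 10 spots in PT_627 and of 109, 58, 49 and 3 in PT_628, took in 85.5% and 94.0% of the dense spots. The threshold was set after the values were seen and no test is given. These spots were also deep: their median was 11699 UMIs against 1277 in the other spots of PT_627, and 13816 against 1711 in PT_628. As CPM, the 3 genes together stood at 1670 against 729 CPM in PT_627 and at 3258 against 553 CPM in PT_628. Since the spots were chosen on these 3 genes, the higher level in them follows from the choice. Not every deep spot was dense: 66.1% of the deepest bin were in PT_627 and 36.9% in PT_628.

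**Figure D3:**
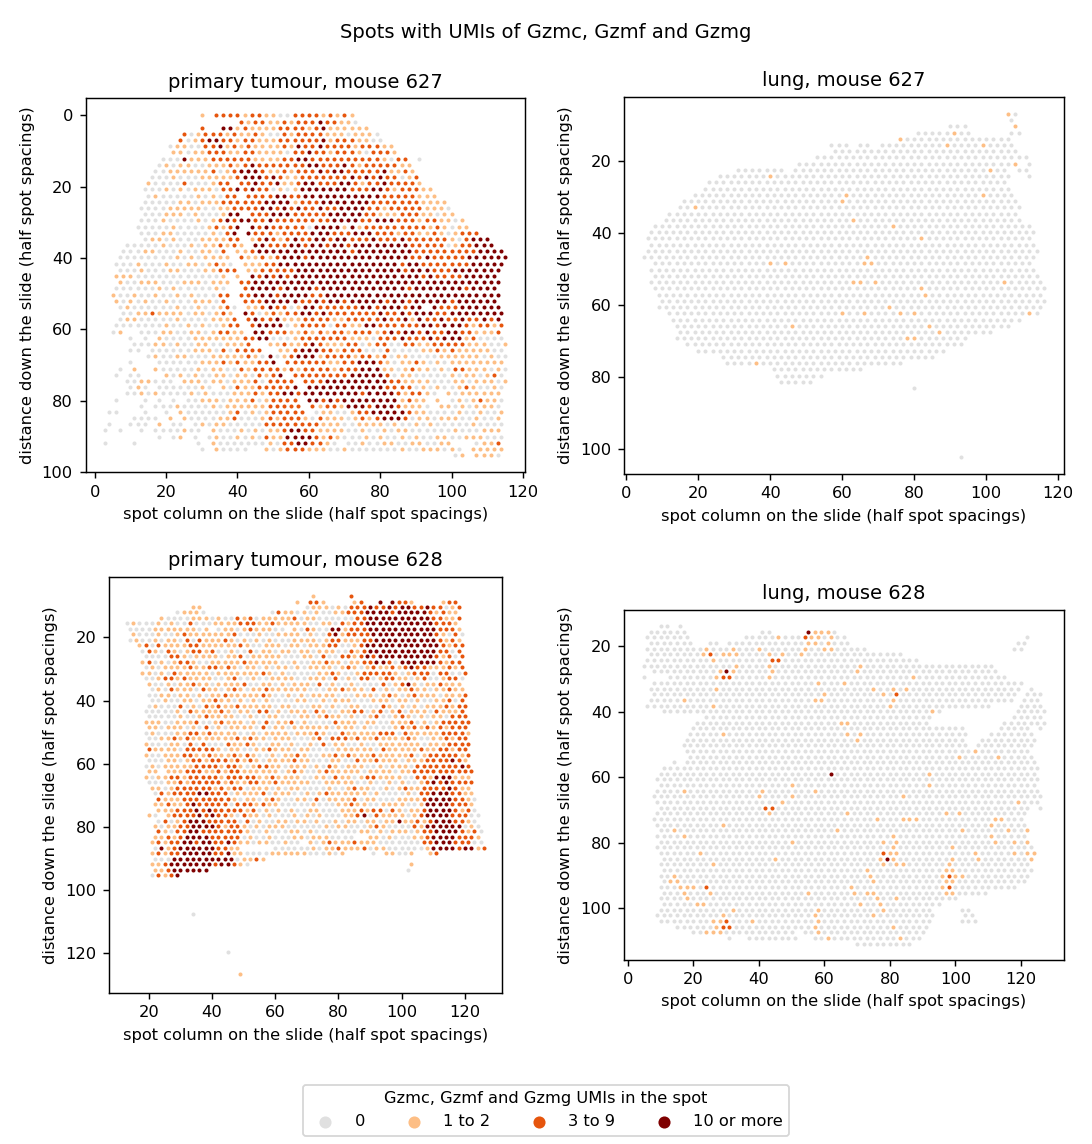
Spots of each section at their slide positions, coloured by UMIs of Gzmc, Gzmf and Gzmg together (0, 1 to 2, 3 to 9, at least 10), not corrected for depth. Most dense spots lie in a few large patches in both PT sections, and such spots are almost lacking in the lung sections.

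The single densest spot gives the scale. In PT_628 a spot of 39174 UMIs held 572 of Gzmg, 325 of Gzmf, 97 of Gzmc, 53 of Gzmb and 35 of Prf1, with 0 of Gzma, 21 of all T cell list genes and 5 of all NK list genes. In PT_627 the densest spot had 19870 UMIs, with 105 of Gzmg, 81 of Gzmf, 13 of Gzmc, 8 of Prf1, 3 of Gzmb and 2 of Gzma, beside 11 of T cell and 0 of NK genes. The top 1% of spots held 42.2% of Gzmg UMIs in PT_628 but 13.0% in PT_627, so the signal was more concentrated in PT_628. Spots next to a Gzmg-positive spot were positive in 83.0% of cases in PT_627, against 34.8% next to a negative spot, and in 66.1% against 44.0% in PT_628. For Gzma the same shares were 40.2% against 12.7% in PT_627, 17.6% against 7.22% in PT_628, 21.1% against 16.3% in Lung_627 and 22.5% against 9.50% in Lung_628. These shares were not adjusted for depth, and its part in them was not tested.

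Across spots of the tumours, Prf1 correlated with Gzmg and Gzmf more than Gzma did. Correlations of Pearson residuals, which take the depth of a spot into account, were 0.665 in PT_627 and 0.895 in PT_628 for Gzmf and Gzmg, and 0.383 and 0.725 for Gzmc and Gzmg, pairs whose probes may share RNA. Prf1, which is no copy of a granzyme, was at 0.326 and 0.695 with Gzmg. Gzmb was at 0.117 and 0.482 with Gzmg and at only 0.052 and 0.369 with Prf1. Gzma was at 0.031 and 0.088 with Gzmg. In the lungs of Mouse_627 and Mouse_628 the correlation of Prf1 with Gzmg was 0.021 and 0.061. In Lung_628 the order was the other way, with 0.199 for Gzma and Gzmg, and in Lung_627 that pair was at -0.009. All were computed over 2490, 2372, 1697 and 2780 spots of PT_627, PT_628, Lung_627 and Lung_628, spots share their section, and no p is given.

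Outside the members, mean correlations over the 4 sections were low. Among 8707 genes with at least 100 UMIs in every section, the highest mean correlation over sections was that of Thy1, a T cell and stromal surface protein, with Gzmf (0.117), Gzmg (0.0969), Prf1 (0.0933) and Gzmb (0.0750), and that of Spp1, osteopontin, with Gzmc (0.0895). The mean hides a difference between sections. In PT_628 Thy1 was at 0.317 with Gzmf, 0.316 with Gzmg and 0.280 with Prf1, and in PT_627 at 0.099, 0.087 and 0.049. In the lungs it was at 0.044 and 0.009 with Gzmf, -0.009 and -0.006 with Gzmg, and 0.004 and 0.040 with Prf1. The highest for Gzma were Gbp4 (0.110), Serpina3g (0.0970) and Iigp1 (0.0929), each known as inducible by interferon.

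The next comparison asked which transcripts accompany the members in a spot. Spots with a UMI of Gzma, Gzmb, Gzmk or Prf1 were each paired with a spot of the same section that had none and whose total lay within 10%, which gave 491, 591, 348 and 365 pairs in PT_627, PT_628, Lung_627 and Lung_628. In the lungs these were mostly Gzma spots. UMIs were summed per class and section and compared with section as a block. The fit called 67 of 17225 genes (0.389%), 38 higher in positive spots (0.221%) and 29 lower, and 1011 had an unadjusted p under 0.05. DESeq2 called 0 and had 245 at an unadjusted p under 0.05. The edgeR count was 12 without Lung_628, 15 without PT_628 and 43 without Lung_627.

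Granzyme C rose in positive spots by 1.06 on the log2 scale, with 0.55 and 1.47 in PT_627 and PT_628 and 1.58 and 2.05 in Lung_627 and Lung_628. Its edgeR adjusted p was 2.12e-09 when the spread was estimated robustly, and it was called in 11 of 13 alternatives. Gzmb is one of the genes that define the positive spots, so RNA shared between its probes and those of Gzmc would enter this value, and its part was not tested. In spots chosen by a Prf1 UMI alone, Gzmc, Gzmf and Gzmg in sum were at 0.61 in PT_627 and 2.31 in PT_628 over depth-matched spots. Gzmg differed by 0.65 and 2.0 in PT_627 and PT_628 and by 2.0 and 2.56 in Lung_627 and Lung_628, and Gzmf by 0.53, 2.03, 1.00 and 1.91 in that order. All 4 sections had the same sign for these 3 genes, but the edgeR call of Gzmg and Gzmf was lost with a robust spread (adjusted p = 0.796 and 0.848). The standard fit rests almost wholly on the spread common to all genes there (prior degrees of freedom 554 against 3 residual ones). In the lung sections the values rest on few UMIs. Gzme, outside the class, rose by 1.14 (SE 0.19, edgeR adjusted p = 6.80e-06) and had 9.34e-06 with a robust spread, with 0.55 in PT_627 and 1.52 in PT_628.

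Genes outside the family were also called, with smaller shifts. Serpina3g, an intracellular serpin, rose by 0.47 on the log2 scale (edgeR adjusted p = 7.50e-09) and Ccl5, which effector lymphocytes secrete, by 0.50 (edgeR adjusted p = 0.00631). Gbp5 rose by 0.65 (edgeR adjusted p = 0.000705) and Gbp6 by 0.55 (0.000673); both encode guanylate-binding proteins that interferon induces. Over 14 alternatives Serpina3g was called in 10, Gbp5 in 8, Gbp6 in 7 and Ccl5 in 5, with the same direction in all. The other genes named by rule were Ighj1 (0.89), Nup210 (0.49) and Ifi44 (0.39), and on the lower side Gas1 (-0.88), Nlrp12 (-0.44), Lgals7 (-0.39), Sox4 (-0.30) and Steap4 (-0.27). These shifts were below 1 log2 unit. The rule names only genes with the same sign in all 4 sections, so that shared sign follows from the choice. Over the 14 alternatives Ighj1 was called in 7, Nup210 in 5 and Ifi44 in 6. On the lower side Gas1 was called in 7, Steap4 in 6, Nlrp12 and Lgals7 in 5 each and Sox4 in 3. When UMIs were summed per mouse, edgeR called 1 gene lower among all 17322, so at most 1 of the 5 lower genes kept its call.

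Of 19 T cell genes tested by edgeR 0 were called and 5 had an unadjusted p under 0.05, with 15 of 19 above 0 and a median of 0.35, against a median of 0.00 rounded over all genes. Trbc1, a T cell receptor constant region, was nearest at 0.68 (edgeR adjusted p = 0.0764). Of 8 NK genes 0 were called by edgeR and 0 had an unadjusted p under 0.05, with a median of 0.29, and DESeq2 called 0 in both lists. As summed lists, T cell genes differed by 0.27 and 0.46 in PT_627 and PT_628 and by 0.14 and 0.24 in Lung_627 and Lung_628, and NK genes by -0.06, 0.44, 0.28 and 0.18 in that order. The T cell sum was thus above its matched spots in all 4 sections, as it was without Thy1 (0.25, 0.42, 0.11 and 0.35), and the NK sum in 3 of 4. Of 13 neutrophil genes edgeR called 5 lower (0.168% of all genes were called lower) and DESeq2 called 0, with 8 and 6 at an unadjusted p under 0.05. Ngp fell by 0.21, S100a8 by 0.20, S100a9 by 0.19, Retnlg by 0.19 and Csf3r by 0.16 on the log2 scale, with edgeR adjusted p from 1.02e-06 to 0.0115. When UMIs were summed per mouse, edgeR called 1 gene lower among all 17322, so at most 1 of these 5 calls held. In the PT sections alone it called 0 lower.

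**Figure D4:**
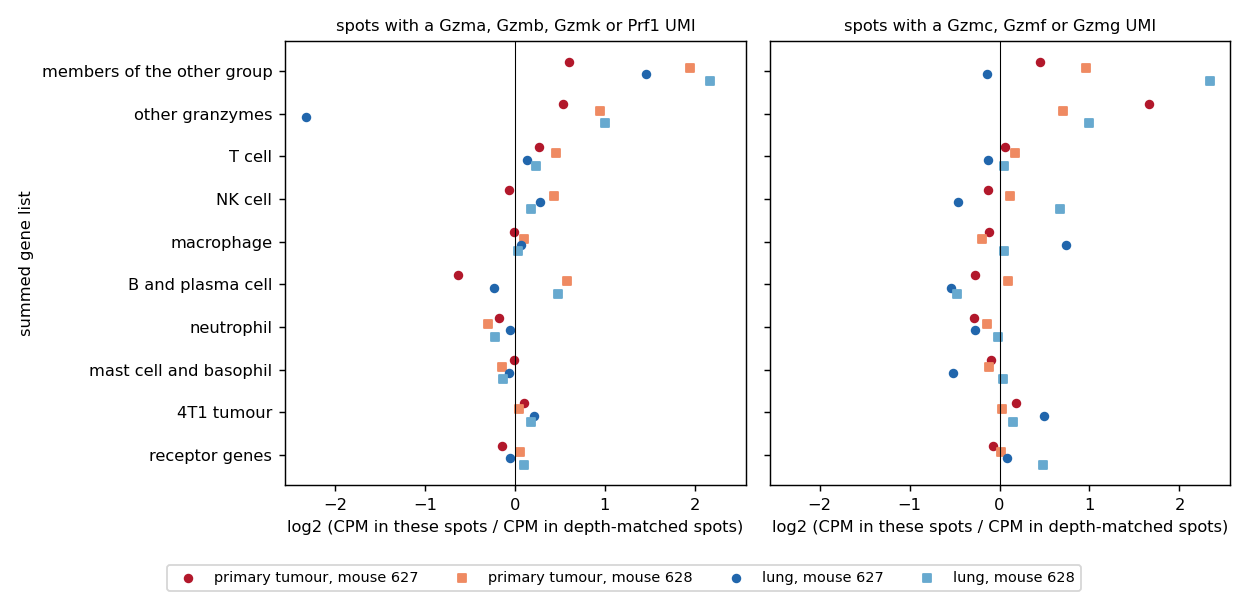
Log2 ratio of summed UMIs of each gene list in positive spots over depth-matched spots of the same section, 1 point per section, for spots with a Gzma, Gzmb, Gzmk or Prf1 UMI and for spots with a Gzmc, Gzmf or Gzmg UMI. T cell genes lie above 0 in all 4 sections around Gzma, Gzmb, Gzmk or Prf1 and within 0.17 of 0 around Gzmc, Gzmf or Gzmg.

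The reverse comparison took spots with a UMI of Gzmc, Gzmf or Gzmg. In PT_627 only 402 of 1895 such spots, and in PT_628 616 of 1753, found a partner without one, and Lung_627 gave 39 pairs and Lung_628 gave 187. The matched spots of PT_627 were shallow, with a median of 558.5 UMIs against 5290 for all its positive spots. The fit called 4 of 14975 genes (0.0267%), 3 of them higher (0.02%). In that fit 476 had an unadjusted p under 0.05, while DESeq2 called 0 and had 130. Calls numbered 2 without Lung_627 and 16 without PT_627. Prf1 was one of them. It rose by 1.45 on the log2 scale (SE 0.25, edgeR adjusted p = 0.0352, 2.61e-06 with a robust spread), with 0.48 and 1.71 in PT_627 and PT_628 and 1.00 and 2.70 in Lung_627 and Lung_628. Over 13 alternatives it was called in 8, with the same direction in all. Reg3g, an antimicrobial lectin, rose by 1.60 (edgeR adjusted p = 0.00104), with 2.34 and 1.55 in Lung_627 and Lung_628 and -0.01 and 0.11 in PT_627 and PT_628, a difference between the tissues that the interaction test of this class did not call. Retnla was the other gene called higher, and Nppa the only one called lower (0.00668%). No T cell gene was called by edgeR (0 of 15) and no NK gene (0 of 7), none had an unadjusted p under 0.05, and DESeq2 called 0. The T cell sum differed by 0.06 and 0.17 in PT_627 and PT_628 and by -0.12 and 0.05 in Lung_627 and Lung_628, and without Thy1 by 0.05, 0.09, -0.22 and 0.14 in that order. Whether either class of spot differed between tissues was tested with an interaction term, and edgeR called 0 genes in both fits (780 and 354 at an unadjusted p under 0.05).

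In the patches themselves, dense spots were set beside depth-matched spots of the same tumour, as values with no test because the threshold was chosen after seeing the data. A partner was found for 348 of 557 dense spots in PT_627 and 179 of 233 in PT_628, and the values cover only these. Their median depth, without the 3 genes, was 9292 UMIs against 11656 for all dense spots of PT_627, and 11579 against 13782 in PT_628. Prf1 had 282 UMIs in the paired dense spots against 139 in 348 matched spots of PT_627 and 429 against 30 in 179 matched spots of PT_628, log2 ratios of 1.02 and 3.83. Gzmb was at 0.54 and 2.81 and Gzma at 0.15 and 0.75. RNA shared between probes of Gzmb and of Gzmc, on which dense spots were chosen, would enter the value of Gzmb, and its part was not tested. Serpinb9b, of the serpin family that inhibits granzyme B, was at 0.89 and 3.42, and Il2rb, the shared receptor chain for IL-2 and IL-15, at 0.92 and 2.45. These 5 genes were above their matched spots in both tumours, with larger ratios in PT_628, while Gzmk was at -1.32 and 0.73 on 4 against 10 and 5 against 3 UMIs. Of the regulator list, 16 genes had at least 10 UMIs in dense and matched spots together in each tumour, of which 7 were above 0 in PT_627, 12 in PT_628 and 5 in both. Of the inhibitors and targets 11 had, with 5 above 0 in PT_627, 7 in PT_628 and 4 in both. The lymphocyte lists differed between the mice. Of the 22 T cell genes, 15 had at least 10 UMIs in dense and matched spots together in each tumour; 5 of the 15 were above 0 in PT_627 and 12 in PT_628. Those above in both were Cd3d (0.45 and 0.58), Lck (0.14 and 0.18), Tcf7 (1.00 and 0.99) and Thy1 (0.44 and 0.76). Cd3e was at -0.86 in PT_627 (49 against 89 UMIs) and 1.22 in PT_628 (21 against 9), and Trbc2 at -0.77 (30 against 51) and 1.16 (9 against 4). The T cell sum was at 0.02 and 0.91, and without Thy1, which held 471 of its 1023 UMIs in the paired dense spots of PT_627, at -0.26 and 1.05. Of the NK genes 6 met the same minimum; all 6 were above 0 in PT_628 and 3 in PT_627, and the sum was at 0.11 and 1.02. Txk, a kinase of T and NK cells, was at 1.58 (30 against 10 UMIs) and 1.89 (26 against 7), while Klrc1, an inhibitory NK receptor gene, was at -0.15 (66 against 73) and 1.19 (16 against 7).

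Other tissue markers differed too. In PT_627 the matched spots held far more epidermal RNA, with the epidermis list at -2.33 (137 against 686 UMIs), Krt14 at -3.87 (19 against 277) and Krt5 at -3.20 (11 against 101), whereas in PT_628 the epidermis list was at 0.29. The mast cell and basophil list was at -0.47 and 0.13; of its 5 genes with at least 10 UMIs in each tumour, Mcpt8, a basophil protease gene, was above 0 in both (0.81 and 2.32). The neutrophil list was at -0.24 and -0.20, and of 11 such genes Ctsg, which encodes cathepsin G (0.93 and 1.76), and Mmp8 were above 0 in both. The 4T1 list stood at 0.27 and 0.11 and the receptor genes at -0.17 and 0.32. The part of these differences in the values of the members was not tested.

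**Figure D5:**
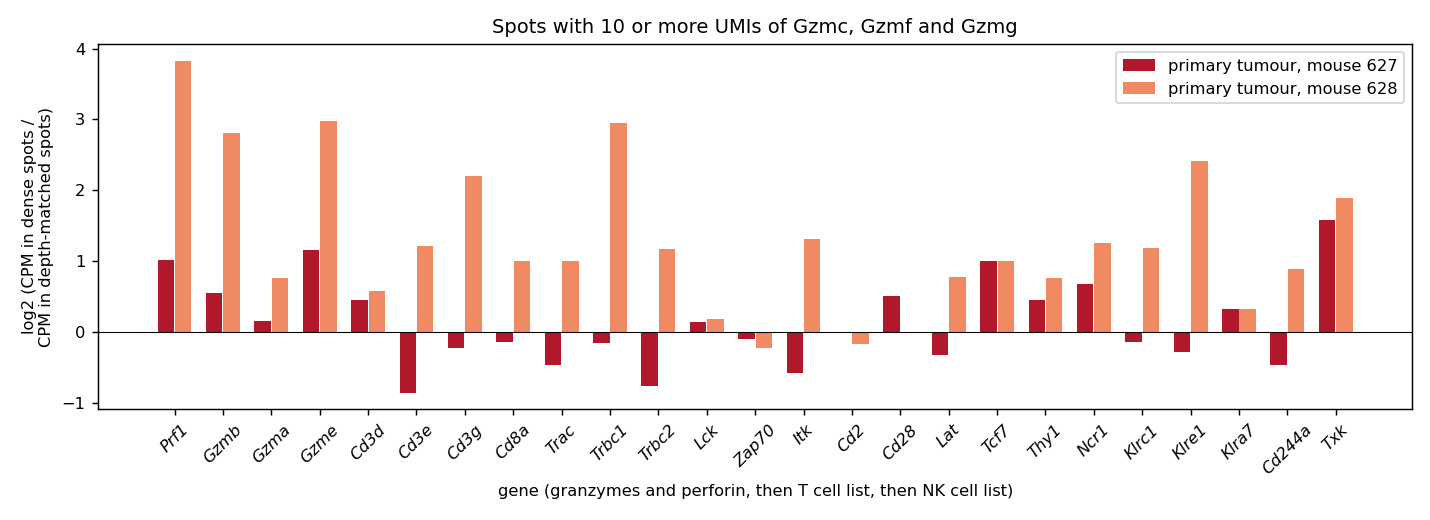
Log2 ratio of CPM in the dense spots (at least 10 UMIs of Gzmc, Gzmf and Gzmg) that found a partner over depth-matched spots in PT_627 and PT_628, 1 bar per tumour. Shown are Prf1, Gzmb, Gzma and Gzme and every T cell and NK cell list gene with at least 10 UMIs in both tumours. Prf1, Gzmb, Gzma and Gzme lie above 0 in both tumours, as do 4 of 15 T cell genes and 3 of 6 NK genes. Probes of Gzme and Gzmb may share RNA with the genes that define dense spots, so their values may follow from the choice.

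Where tumour or T cell markers were richer, members followed unlike paths. With spots split into 4 bins by their share of 4T1 genes, Gzmg rose over the bins of PT_627 as 378, 568, 664 and 927 CPM, but not evenly in PT_628, at 643, 697, 560 and 989 CPM. In Lung_628 it was at 5.95, 3.17, 3.11 and 3.86 CPM, no higher where 4T1 genes were richest. In Lung_627 it was lowest in the poorest bin, at 0.782, 2.37, 1.45 and 1.93 CPM, on 2, 6, 5 and 5 UMIs. With bins by the T cell list, Gzmg was flat in PT_627, between 618 and 674 CPM, and was at 417, 433, 993 and 892 CPM in PT_628. In Lung_628 it was at 2.83, 3.46, 3.05 and 6.57 CPM. In Lung_627 it was at 3.76, 0.611, 1.02 and 1.80 CPM, on 8, 2, 3 and 5 UMIs. Gzma in the bin richest in T cell genes was at 60.8 CPM in PT_627, 53.8 in PT_628, 35.7 in Lung_627 and 18.4 in Lung_628, the highest bin in every section. In the bin poorest in T cell genes it was at 29.6, 26.1, 26.8 and 12.0 CPM in that order. In PT_628 that richest bin was also the shallowest, with a median of 1437 UMIs per spot against 5272 in the bin below it, and by depth alone Gzma there went from 38.3 CPM in the shallowest bin to 20.7 in the deepest; the part of depth was not tested. Prf1 by the same bins was flat in PT_627, from 61.3 to 65.9 CPM, and went from 27.3 to 86.3 CPM in PT_628.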

How the data were processed

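Spots of Visium FFPE sections were analysed from the raw UMI counts per gene and spot that the authors deposited, with spot positions. Per the file headers and labels, they were made with Space Ranger 2.0.0 against mm10 from probe-based libraries, and each column is 1 spot. Spots with over 200 genes were kept (9339 of 9445; the 106 removed were all of PT_627). No doublet caller was run on spots. Of the spot barcodes, 1342 occur in all 4 sections, as the slides share one barcode set. The members and gene lists were chosen with earlier results of these data known. Levels are UMIs, CPM of all UMIs, and shares of spots, with exact 95% Poisson or Clopper-Pearson intervals.

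UMIs were summed per section and tested with edgeR 4.0.16 (quasi-likelihood, TMM, filterByExpr, Benjamini-Hochberg at 0.05), limma 3.58.1 and R 4.3.3. Lung against PT used all 4 sections without a block. Positive spots were paired without replacement with spots of the same section within 10% of total UMIs, and section was a block. P-values rest on sections of only 2 mice, and sections of 1 mouse share the animal. They also rest on a spread that edgeR pools over genes. Prior against residual degrees of freedom were 7.38 against 2 for lung against PT. They were 554 against 3 for spots with a Gzma, Gzmb, Gzmk or Prf1 UMI and 16.9 against 3 for spots with a Gzmc, Gzmf or Gzmg UMI. DESeq2 1.42.0 was an alternative. Others were no TMM, no filter, a block by mouse, all spots, at least 2 UMIs, a match within 2%, sums per mouse and leaving out each section. A robust spread, crossed mice, 1 tissue alone, the T cell list without Thy1 and the dense spots were added after the data were seen. The animal numbers pair the sections, since lung and tumour come from the same animal; the deviations of same-mouse sections correlated at -0.31.

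Named genes were the members, genes of the lists, and, for each comparison of positive with matched spots, the 10 largest increases and 5 largest decreases among called genes with 1 direction in every section, leaving out genes that define the class. To these were added the 5 genes with the highest mean correlation to a member. Reg3g, Retnla and Nppa were called without 1 direction in every section, and the genes given for the dense spots are from the lists, those counted and plotted with at least 10 UMIs in each tumour. Correlations used Pearson residuals with theta 100. On simulated data the tests recovered 78.1% of changes of 4 log2 units and 27.8% of 2 among 15267 genes for lung against PT, and 97.7% of 2 among 17225 genes and 95.1% among 14975 for the comparisons of positive spots. Python 3.11.15, numpy 2.4.6, scipy 1.17.1, pandas 2.3.3, Biopython 1.88 and matplotlib 3.10.9 were used.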

Additional observations from a re-analysis of the deposited data

Results flagged for a closer look

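A few lists moved in opposite ways in the tissues around positive spots, and the difference of these sums was not tested. For single genes the edgeR interaction of tissue and class called 0 in both comparisons (780 and 354 at an unadjusted p under 0.05). The summed epidermis list in spots with a Gzma, Gzmb, Gzmk or Prf1 UMI was above its matched spots in both lungs (log2 0.18 and 0.13 in Lung_627 and Lung_628) and below in both tumours (-0.34 and -0.09), lung minus PT 0.376. In spots with a Gzmc, Gzmf or Gzmg UMI the same list stood at 0.74 and 0.47 in the lungs and at -0.05 and -0.12 in the tumours, a difference of 0.689. The macrophage list in those spots stood at 0.74 and 0.05 in the lungs and at -0.11 and -0.19 in the tumours, a difference of 0.549. For spots with a Gzmc, Gzmf or Gzmg UMI, the Lung_627 values of both lists rest on only 39 pairs.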

How the results depend on the processing

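For lung against PT, the number of genes called moved from 1139 to 328 without TMM (median of all genes -0.31), 2022 with no filter, and 3711 with DESeq2 (1676 higher in lung, 2035 lower). With the mouse as a replicate block, the paired fit called 1817, and pairing the mice crossed, which was added after the data were seen, called 2565. On TMM-scaled libraries the mean log2 difference of Gzma was -0.47 in place of -0.76. Around Gzma, Gzmb, Gzmk or Prf1, calls were 0 without the replicate block (edgeR, 0 at an unadjusted p under 0.05) and 0 with DESeq2 (245), 19 with at least 2 UMIs, 14 with sums per mouse, 3 in the PT sections alone, 68 in the lung sections alone, and 12 to 70 when 1 section was left out: 12 without Lung_628, 15 without PT_628, 43 without Lung_627 and 70 without PT_627. Trbc1 was called only without Lung_627 (edgeR adjusted p = 0.0117). Around Gzmc, Gzmf or Gzmg the 4 calls became 12 with no filter, 0 without the replicate block (edgeR, 3 at an unadjusted p under 0.05), 0 with DESeq2 (130), 18 with a match within 2%, 18 with sums per mouse, 13 with a robust spread, 0 in the PT sections alone (346), 6 in the lung sections alone, and 2 to 16 when 1 section was left out (2 without Lung_627, 16 without PT_627). The cause was not tested. These counts rest on 2 mice, and in the lungs on few UMIs per member.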
